A study of Mus musculus with 2 samples.

Results

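The cells described here are resting CD8+ T cells from B16 melanoma tumors that held much *Ccl5* RNA and RNA of granzyme A or granzyme K, but almost none of granzyme B. They were chosen by counts of unique molecular identifiers (UMIs), each of which marks a captured RNA molecule. A cell had to hold 20 or more *Ccl5* UMIs, 2 or more of *Gzma* and *Gzmk* together and under 2 of *Gzmb*. It also had to hold under 5 UMIs of the interferon-stimulated genes *Ifit1*, *Ifit3* and *Isg15* together, under 5 of the mitosis genes *Top2a*, *Mki67* and *Birc5*, and under 8 of the replication genes *Mcm3*, *Mcm5*, *Pcna*, *Tyms* and *Rrm2*. Of 4745 cells within the quality limits (under 7.5% mitochondrial UMIs, over 500 and under 50000 UMIs), 164 met this rule. The levels of these genes in the cells chosen follow from the rule and are given only as a description.

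The study asked how obesity alters CD8+ tumor-infiltrating lymphocytes (TIL). The lean group was 1 library from mice on normal chow (NC), and the obese group was 1 library from mice on a western diet (WD). All were male C57BL/6J mice aged 16 weeks that had been on their diet for 12 weeks from weaning and carried B16-F0 melanoma, a line transplanted under the skin, for 14 days. CD8+ cells were enriched with magnetic beads, sorted by CD8 staining to 99% purity or more, and captured in droplets for 3' RNA counting. How many mice each library pools is not given in the sources used here. With 1 library per diet there is no replicate and no test between diets, so every interval is a 95% interval for counting error only and says nothing of the spread between mice.

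Granzymes are serine proteases of cytotoxic granules. Granzyme B is a main trigger of apoptosis in target cells, whereas granzymes A and K are tryptases with other substrates, and granzyme K RNA is often seen in memory CD8+ T cells of inflamed tissue that have not become full killers. *Ccl5* encodes a chemokine that antigen-experienced CD8+ T cells hold as preformed RNA. *Gzma* and *Gzmk* lie near each other on the minus strand of chromosome 13, at chr13:113093825-113100981 and chr13:113171608-113225908 in GRCm38, away from *Gzmb* on chromosome 14.

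The promoters of both granzyme genes are shown because their RNAs chose the cells and stood in a different ratio in each library. They are RefSeq windows on GRCm38.p6, minus strand, 5′ to 3′, from 250 bases before the start of the gene to 50 after it, at chr13:113100932-113101231 for *Gzma* and chr13:113180916-113181215 for *Gzmk*, whose RefSeq start lies inside the longer gene span given above. Capitals mark matches to 6 short motifs searched on both strands.
Gzma: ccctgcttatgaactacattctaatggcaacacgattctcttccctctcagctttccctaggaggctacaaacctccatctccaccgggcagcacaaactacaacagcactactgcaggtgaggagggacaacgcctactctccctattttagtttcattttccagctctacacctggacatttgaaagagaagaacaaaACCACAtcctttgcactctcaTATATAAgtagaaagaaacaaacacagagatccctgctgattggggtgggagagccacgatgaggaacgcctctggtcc
Gzmk: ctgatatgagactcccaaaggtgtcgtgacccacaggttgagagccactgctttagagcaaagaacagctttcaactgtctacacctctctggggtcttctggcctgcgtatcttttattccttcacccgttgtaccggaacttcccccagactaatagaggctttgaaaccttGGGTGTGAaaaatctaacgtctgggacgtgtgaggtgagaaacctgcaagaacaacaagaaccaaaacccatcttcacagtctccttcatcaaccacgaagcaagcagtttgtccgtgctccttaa
The *Gzma* window held a match to the Runx motif TGTGGT on the opposite strand, which begins 50 bases before the start, and the TATA motif TATATAA, which begins 29 before it. The *Gzmk* window held the Klf motif GGGTGTG 76 bases before the start. The T-box motif GGTGTGA overlaps it and begins 1 base later. T-box letters occurred in 3.98% of 32851 promoter windows of this length, Klf letters in 7.95%, TATA letters in 3.24% and Runx letters in 16.8%. The AP-1 motif TGANTCA (7.81% of windows) and the Ets motif CAGGAAG (13.3%) matched in neither window. A match describes these letters and is not a site of binding.

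The cells made up a larger share of the obese library. The lean library gave 37 of 2456 cells, or 1.51% (1.06% to 2.07%) of those kept, and the obese library 127 of 2289, or 5.55% (4.65% to 6.57%), a ratio of 3.68 (2.54 to 5.47) between the shares. The limit on *Gzmb* set most of this gap. Cells with enough *Ccl5* were 1390 in the lean and 1469 in the obese library, and 447 and 619 of these also held enough granzyme A or K. Under 2 *Gzmb* UMIs were then found in 46 of the lean cells (10.3%) and 173 of the obese cells (27.9%). The interferon limit left 40 and 147 cells, the mitosis limit 37 and 129, and the replication limit 37 and 127.

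**Figure D1:**
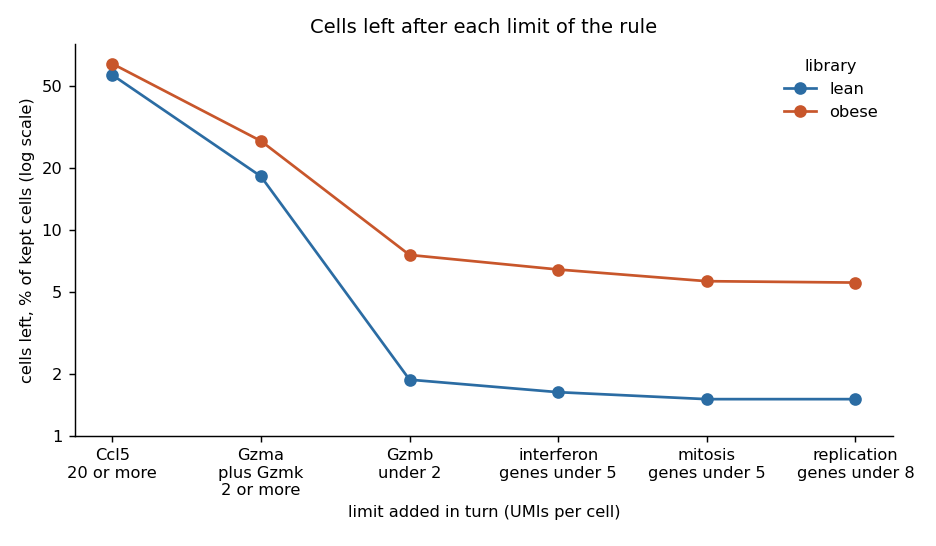
Cells left after each limit of the rule, as a percentage of the cells within the quality limits (log scale), in the lean and the obese library. The lines part most at the limit on Gzmb, which left 1.87% of lean and 7.56% of obese cells.

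The gap lay in cells with granzyme K and no granzyme A. Among resting *Ccl5*-high cells with granzyme A or K and any level of *Gzmb*, 85 lean and 84 obese cells held a *Gzma* UMI. Of these, 15 lean (17.6%, 10.2% to 27.4%) and 11 obese (13.1%, 6.72% to 22.2%) were under the *Gzmb* limit, and the intervals overlap. Among those with *Gzmk* and no *Gzma*, 22 of 150 lean cells (14.7%, 9.43% to 21.4%) but 116 of 213 obese cells (54.5%, 47.5% to 61.3%) were under it. The median such cell held 14.5 *Gzmb* UMIs in the lean and 1 in the obese library, at median depths of 9382 and 8546 UMIs. *Gzmb* is a gene of the rule, and these values show how the rule divided each library.

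Depth differed between the libraries in the cells chosen. The 37 lean cells held 2798 to 10183 UMIs with a median of 4451, against a median of 8010 for all other lean cells, and the 127 obese cells held 1705 to 17145 with a median of 7283, against 9257. Their UMIs came to 186433 and 972058, so that a count of 0 allows a level of up to 16.1 counts per 1000000 UMIs (CPM) in the lean and 3.09 in the obese cells. Since the limits are UMI counts, a shallow cell passes the *Gzmb* limit more easily. It passes the limits on *Ccl5* and on *Gzma* plus *Gzmk* less easily. With limits per 10000 UMIs the rule took 42 lean and 124 obese cells, and the ratio of shares was 3.17. Read on cells thinned to 2000 UMIs it took 34 and 55, a ratio of 1.73 (1.11 to 2.74), and among cells of 5000 to 10000 UMIs 12 and 66, a ratio of 6.19 (3.32 to 12.6). The obese share was the larger under every reading, and the cause of the shifts in its size was not tested.

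Many of the cells sat at the edges of the rule. *Gzma* and *Gzmk* together came to exactly 2 UMIs in 11 lean and 56 obese cells, while 52 lean and 82 obese cells missed the rule with 1 UMI. *Gzmb* stood at 1 UMI in 16 lean and 44 obese cells, while 10 and 33 cells missed with 2. Few cells lay near the *Ccl5* limit, as 6 cells in each library held 20 to 24 UMIs, and the medians were 81 and 84. Of the 4 cell barcodes that occur in both libraries none marked a cell chosen here. Of the deposited cells outside the quality limits, 0 lean and 1 obese cell met the rule.

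The cells carried the markers of CD8+ T cells. All 9 genes of a CD8 T cell list (*Cd3d*, *Cd3e*, *Cd3g*, *Trac*, *Cd8a*, *Cd8b1*, *Lck*, *Cd2* and *Thy1*) were detected in each library, and every cell held UMIs of the list, which summed to 7466 CPM in the lean and 6498 in the obese cells. Melanoma genes came to 0 lean and 1 obese UMI over 7 genes, with *Pmel*, *Mlana*, *Tyrp1*, *Dct*, *Tyr* and *Sox10* at 0, and the 4 hemoglobin genes to 0 in both. Genes of NK cells came to 1 lean and 5 obese UMIs over 6 genes, with *Ncr1* at 0 in both libraries. *Cd4* and *Foxp3* were at 0, and the list for CD4 and regulatory T cells (37 and 154 UMIs) was led by *Ctla4*, which activated CD8+ T cells also express. The myeloid list (30 and 127 UMIs) was led by *Cst3*, and *Siglech* and *H2-Aa* were at 0. The gamma-delta list (12 and 49 UMIs) was led by *Tcrg-C2*, with *Tcrg-C1*, *Trdv4*, *Zbtb16* and *Sox13* at 0 and *Trdc* at 0 lean and 3 obese UMIs. It summed to 64.4 and 50.4 CPM, against 30.5 and 32.8 CPM in all other cells, and both measured genes, *Tcrg-C2* and *Tcrg-C4*, were higher than in granzyme-low cells. The B cell list (7 and 64 UMIs) was led by *Ighm*, with *Cd79b* at 0 lean and 3 obese UMIs and *Cd79a*, *Ms4a1* and *Jchain* at 0. It summed to 37.5 and 65.8 CPM, against 41.0 and 64.8 CPM in all other cells. T cell receptor V genes were captured thinly, with 21 lean and 62 obese *Trbv* UMIs. *Trbv2* took 28.6% of these in the lean cells and 24.2% in the obese cells, against 34.3% and 18.05% in all other cells. All 8 lean *Trav4-4-dv10* UMIs came from 1 cell, and the 10 obese *Trav16* UMIs from 4 cells.

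The balance of granzyme A and granzyme K differed between the libraries. *Gzma* came to 196 UMIs or 1051 CPM (909 to 1209) in the lean cells and 49 UMIs or 50.4 CPM (37.3 to 66.6) in the obese cells. The log2 ratio, obese over lean, was -4.38 (-4.86 to -3.92). It was smaller with limits per 10000 UMIs (-3.52) and with the rule read on cells thinned to 2000 UMIs (-2.56). *Gzmk* came to 83 UMIs or 445 CPM (355 to 552) and 422 UMIs or 434 CPM (394 to 478), and its log2 ratio was -0.04 (-0.38 to 0.32). That ratio depended on the limits. It was -0.39 in cells with *Gzmk* and no *Gzma*, and 0.87 with a limit of 5 UMIs for both granzymes together, so no direction is given. In the lean library 9 cells held *Gzma* only, 6 both and 22 *Gzmk* only, and in the obese library these were 3, 8 and 116. Cells without *Gzmk* held 169 of the 196 lean *Gzma* UMIs, whereas cells with both held 39 of the 49 obese ones. A *Gzma* UMI was thus found in 15 of 37 lean cells (40.5%) and 11 of 127 obese cells (8.66%). Cells of the naive-like group defined below, which should lack granzyme A, held one in 3.24% of lean and 3.72% of obese cells, at median depths of 7490 and 7595 UMIs. Thinned to 2000 UMIs per cell, the shares with *Gzma* were 35.1% (20.2% to 52.5%) and 5.60% (2.28% to 11.2%), with 2 obese cells left out as too shallow.

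A few cells carried most of the *Gzma*. In the lean library 3 cells with 59, 40 and 25 UMIs held 63.3% of 196 UMIs, and in the obese library 3 cells with 14, 12 and 8 held 69.4% of 49. Without these cells the log2 ratio was -4.72 (-5.63 to -3.90). The *Gzmk* UMIs were spread more evenly, with at most 9 in a lean and 12 in an obese cell. In otherwise like cells with 2 or more *Gzmb* UMIs, *Gzma* stood at 812 CPM in 198 lean and 730 CPM in 170 obese cells, a log2 ratio of -0.15. Both genes are part of the rule, so a cell chosen without *Gzma* had to hold *Gzmk*, and these values describe the choice.

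**Figure D2:**
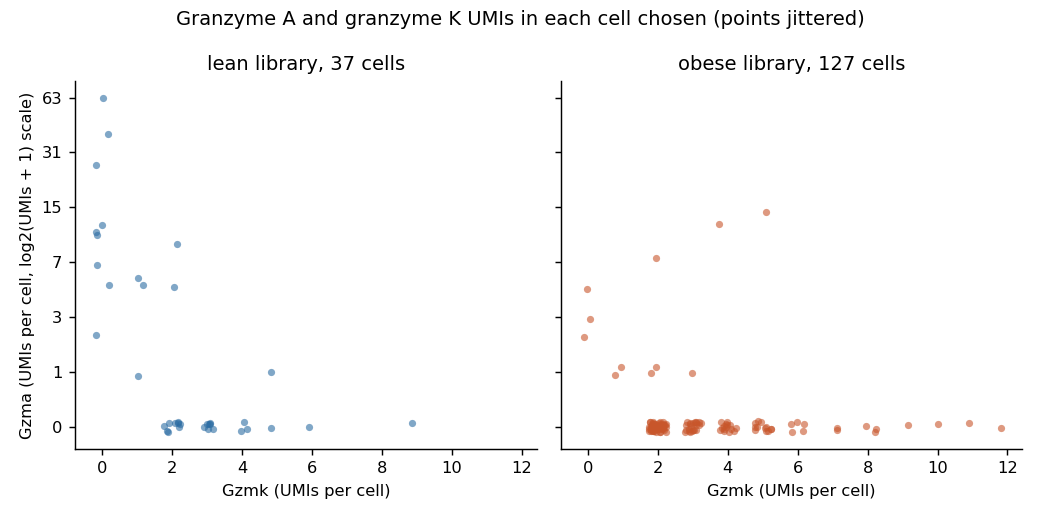
UMIs of Gzmk (x axis) and Gzma (y axis, log2(UMIs + 1) scale) in each of 37 lean and 127 obese cells, 1 jittered point a cell. The lean cells form an arm along each axis, while 116 of the obese points lie at 0 Gzma.

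Other genes were ranked between cells with *Gzma* only (9 lean, 3 obese) and cells with *Gzmk* only. The ends of this ranking are a description, and no difference was tested. Some obese values rest on as few as 1 UMI in the *Gzma* cells. Of 1015 genes measured, those highest in the *Gzma* cells of both libraries were *Rasa3*, *Klf2*, *Klrk1*, *Brd2* and *Krtcap2*. *Klf2*, a transcription factor that keeps T cells circulating, was higher by 1.57 (log2) in the lean cells (91 against 101 UMIs) and by 1.86 in the obese cells (29 against 585). *Klrk1*, which encodes the activating receptor NKG2D, was higher by 2.23 (17 against 12 UMIs) and by 1.43 (5 against 136). Lowest in the *Gzma* cells were *Ifi27l2a*, *Serpina3g*, *Rgs1*, *Ctla2a* and *Samhd1*. *Rgs1*, which dampens chemokine receptor signals and is high in tissue T cells, had log2 ratios of -1.42 in the lean cells (8 against 71 UMIs) and -2.50 in the obese cells (1 against 412). The interferon-stimulated gene *Ifi27l2a* had ratios of -2.20 (11 against 167) and -2.09 (4 against 1246).

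To place the cells among their neighbours, 3 groups were set with the same interferon, mitosis and replication limits. Granzyme-low cells differed in holding under 2 UMIs of *Gzma* and *Gzmk* together (402 lean, 359 obese). *Gzmb*-positive cells differed in holding 2 or more *Gzmb* UMIs (198 and 170). Naive-like cells had under 20 *Ccl5* UMIs, under 2 of *Gzmb* and 3 or more of *Ccr7* and *Lef1* together (185 and 215). A gene was counted as higher or lower where its CPM differed by 1.5-fold or more in the same direction in both libraries, among genes with 20 or more UMIs over both groups and 10 or more CPM in 1 of them, the genes of the rule left out. Of 6640 genes, 301 (4.53%) were higher and 136 (2.05%) lower than in granzyme-low cells. Of 6529 genes, 188 (2.88%) were higher and 274 (4.2%) lower than in *Gzmb*-positive cells, and of 5897, 713 (12.1%) were higher and 168 (2.85%) lower than in naive-like cells. Ribosomal protein genes took 29.1% of UMIs in the lean and 32.2% in the obese cells, against 39.0% and 37.5% in granzyme-low and 44.0% and 44.1% in naive-like cells, and the levels of all genes share this total. The median gene stood at 0.20 (lean) and 0.12 (obese) on the log2 scale over granzyme-low cells and at 0.28 and 0.26 over naive-like cells, and list medians are to be read against these. With the trimmed mean of M values (TMM) scaling of edgeR 116 genes were higher and 268 lower than in granzyme-low cells, so the split of the counts depended on the scaling.

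The word memory fitted only in part. A list of 11 naive and central memory genes had 0 higher and 7 lower genes against granzyme-low cells, with medians of -2.53 (lean) and -1.01 (obese). *Il7r*, the receptor for the survival cytokine IL-7, stood at 59.0 and 111 CPM against 342 and 313 CPM in granzyme-low cells (log2 ratios -2.53 and -1.49). *Satb1*, a chromatin organizer of naive T cells, stood at 26.8 and 36.0 CPM against 196 and 145 CPM (-2.87 and -2.01). The lean values of these genes rest on 11 and 5 UMIs. Against *Gzmb*-positive cells the same list lay the other way, with 4 of 9 genes higher and 0 lower, at medians of 1.45 and 0.91. *Tcf7*, the transcription factor of stem-like and memory T cells, stood at 53.6 and 81.3 CPM against 9.83 and 31.3 CPM in *Gzmb*-positive cells, but 176 and 125 CPM in granzyme-low cells. Against naive-like cells 8 of 11 were lower, 2 of which (*Ccr7* and *Lef1*) chose those cells. By the list medians and by *Tcf7* the cells thus lay between granzyme-low and *Gzmb*-positive cells. This was not shown for each gene, as 4 of 9 were 1.5-fold higher than in *Gzmb*-positive cells. *Il7r* was not above *Gzmb*-positive cells once cells were thinned to 2000 UMIs. In the lean library 8.11% of the chosen and 11.6% of *Gzmb*-positive cells then held it, with overlapping intervals. In the obese library both shares were 11.2%. The cells are named here by their granzymes.

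The genes furthest above the granzyme-low cells in both libraries included a chemokine receptor and T cell transcription factors. *Ccr2*, a receptor that brings cells to inflamed sites, stood at 102 CPM in the lean and 155 CPM in the obese cells, against 26.2 and 40.1 CPM (log2 ratios 1.96, 1.14 to 2.70, and 1.95, 1.60 to 2.31). It was found in 10 of 37 and 58 of 127 cells, and *Gzmb*-positive cells held as much, 107 and 155 CPM. *Eomes*, a T-box factor of memory and cytotoxic CD8+ T cells, stood at 102 and 158 CPM against 36.2 and 60.3 CPM in granzyme-low cells (1.49, 0.70 to 2.21, and 1.39, 1.07 to 1.71). Here *Gzmb*-positive cells held less, 27.6 and 93.3 CPM. *Maf*, a factor of chronically stimulated T cells, stood at 75.1 and 85.4 CPM against 10.3 and 24.6 CPM (2.86 and 1.80). The other genes highest by the same ranking were *Igkc*, *Trbv2*, *Kremen2*, *Tspan3*, *Smpdl3b*, *Tcrg-C2*, *Mxi1*, *Lpin2* and *Rpa2*, of which all but *Igkc*, *Tspan3* and *Rpa2* rest on under 10 lean UMIs. Among the lowest were *Dennd5b*, *Spp1*, *Treml2*, *Satb1*, *Tmem80*, *Klra7*, *A930005H10Rik*, *Atn1*, *Vkorc1*, *Nsg2* and *Il7r*.

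*Igkc*, which encodes the constant part of the immunoglobulin kappa light chain and belongs to B cells, led the ranking over both neighbours. It stood at 80.5 CPM (45.0 to 133) in the lean and 155 CPM (132 to 182) in the obese cells, against 4.80 and 15.5 CPM in granzyme-low and 13.6 and 48.2 CPM in *Gzmb*-positive cells. It was found in 5 of 37 lean cells, 1 of which held 8 of 15 UMIs, and in 59 of 127 obese cells (46.5%) with at most 11 UMIs each. Thinned to 2000 UMIs per cell, 25.6% (18.2% to 34.2%) of the obese cells held it, against 2.23% of granzyme-low and 8.24% of *Gzmb*-positive cells and 0 of 214 naive-like cells, which allows up to 1.71%. In the lean library these shares were 5.41%, 2.24%, 3.03% and 0.54%. The B cell genes *Cd79a*, *Ms4a1* and *Jchain* were at 0 in these cells and *Cd79b* at 0 lean and 3 obese UMIs, and *Ighm* stood at -0.97 (lean) and -0.30 (obese) on the log2 scale over granzyme-low cells but at 1.37 and 0.55 over *Gzmb*-positive cells. The source of the *Igkc* RNA was not tested.

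Some genes of the S100, galectin and annexin list and of the checkpoint list were higher than in granzyme-low and naive-like cells, while the medians of the antigen response list and of the immediate early and heat shock list lay below granzyme-low cells. The antigen response list had 1 of 9 genes higher and 1 lower than in granzyme-low cells, with medians of -0.39 and -0.26, and 1 of 8 higher and 2 lower than in naive-like cells, with medians of -0.61 and -0.25. The immediate early and heat shock list had 0 of 17 past 1.5-fold against granzyme-low cells, with medians of -0.39 and -0.25. Of 11 genes for S100 proteins, galectins and annexins, which mark T cells past the naive state, 3 were higher than in granzyme-low cells (medians 0.89 and 0.40) and 9 higher than in naive-like cells (1.45 and 1.31), with 0 lower in either. *S100a6* stood at 2569 CPM in the lean and 2448 CPM in the obese cells, between 1233 and 1669 CPM in granzyme-low and 3995 and 3573 CPM in *Gzmb*-positive cells. Of the checkpoint and exhaustion genes, 3 of 6 measured were higher than in granzyme-low cells, 4 of 4 higher than in naive-like cells and 4 of 8 lower than in *Gzmb*-positive cells. *Tox*, a factor of chronic stimulation, stood at 118 and 168 CPM, against 44.7 and 67.0 CPM in granzyme-low and 129 and 170 CPM in *Gzmb*-positive cells. *Pdcd1*, which encodes PD-1, stood at 85.8 and 78.2 CPM against 61.0 and 38.7 CPM and 293 and 143 CPM. The virtual memory list, genes of memory-like T cells that arise without antigen, had 2 of 10 higher than in granzyme-low and 7 of 10 higher than in naive-like cells. The tissue residency list had 1 of 8 higher and 0 lower than in granzyme-low cells, with medians of 0.55 and 0.25. In the lean library 5 of the 8 lay above 0 and 3 below. *Itgae*, the integrin of many resident T cells, held 0 lean and 4 obese UMIs.

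Against *Gzmb*-positive cells, part of the measured genes of killing and of glycolysis were lower. Of 13 cytotoxic effector genes measured 6 were lower and 0 higher, with medians of -1.14 (lean) and -0.42 (obese). *Prf1*, which encodes perforin, stood at 129 CPM in the lean and 64.8 CPM in the obese cells, against 639 and 194 CPM. The granzyme genes *Gzmd* and *Gzme* were at 0 in both libraries and *Gzmf* at 1 and 0 UMIs, against 192 and 18.1 CPM, 112 and 29.5 CPM and 594 and 41.5 CPM in *Gzmb*-positive cells. Of 14 glycolysis genes 7 were lower and 0 higher (medians -1.21 and -0.68). *Tpi1* stood at 59.0 and 75.1 CPM against 342 and 168 CPM, and *Ldha* at 274 and 295 CPM against 837 and 530 CPM. The chemokine gene *Ccl3* stood at 290 and 183 CPM against 1347 and 754 CPM, and *Tnfrsf9*, the costimulatory receptor 4-1BB, at 10.7 and 23.7 CPM against 226 and 174 CPM. Other genes among the 12 lowest were *Spp1*, *Bnip3*, *Gm36723*, *AA467197*, *Tnfrsf4*, *Mt2* and *Tmem80*. Among the highest were *Tcf7*, *Slamf6*, *Dapl1*, *Zbtb20* and *Pmepa1*, with *Igkc*, *Adk*, *Fam193b*, *Zbtb11os1*, *Kcnk5*, *Zfp217* and *Gm13166*. *Slamf6*, a receptor of progenitor-like T cells, stood at 37.5 and 49.4 CPM against 10.8 and 21.1 CPM, on 7 lean UMIs. *Ifng*, the cytokine interferon gamma, stood at 327 CPM in the lean and 505 CPM in the obese cells, against 883 and 653 CPM in *Gzmb*-positive and 269 and 387 CPM in granzyme-low cells.

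**Figure D3:**
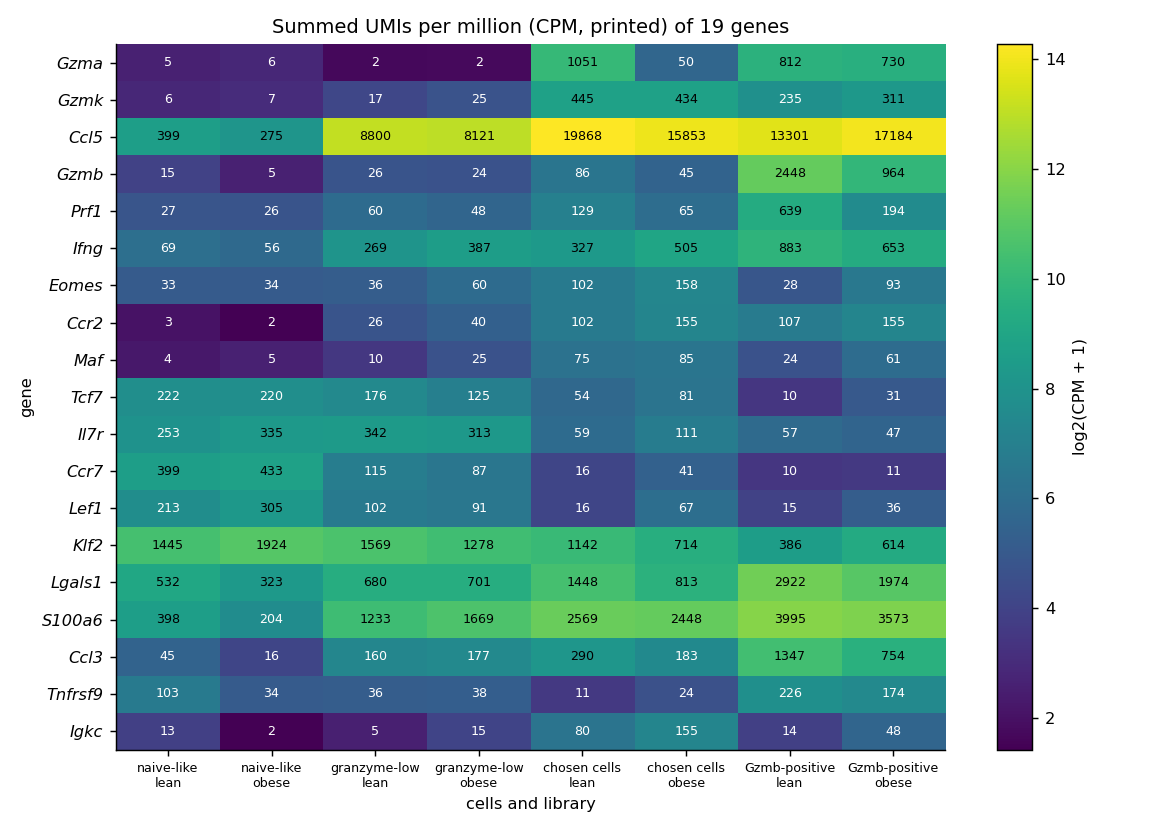
Levels of 19 genes (CPM, printed in each box; color is log2(CPM + 1)) in naive-like, granzyme-low, the chosen and Gzmb-positive cells of each library. From left to right Tcf7 and Il7r lessen at the chosen cells, and Eomes is highest in them within each library. The Gzmb levels follow from the Gzmb limits that set the groups.

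**Figure D4:**
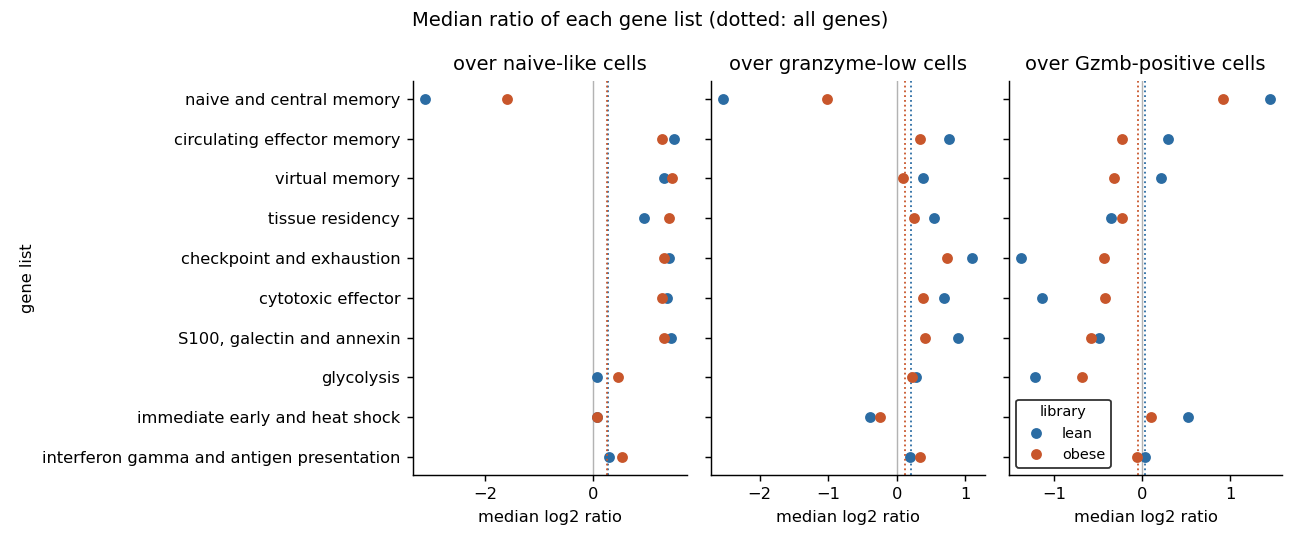
Median log2 ratio of 10 gene lists in the chosen cells over 3 groups of cells, by library, with the median of all genes as dotted lines. The naive and central memory list lies at -2.53 and -1.01 over granzyme-low cells and at 1.45 and 0.91 over Gzmb-positive cells.

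Between the libraries, the obese cells were compared with the lean cells over 5244 genes. Of these 933 (17.8%) were 1.5-fold or more higher and 769 (14.7%) lower in the obese cells, and the median gene lay at -0.03 on the log2 scale. With TMM scaling the counts were 1191 and 466 and the median 0.12. These shares are the background for the lists below and are not shares of genes shown to differ between diets. The lean cells held 186433 UMIs against 972058 in the obese cells. A gene near the limits of entry thus rests on few lean UMIs and can pass 1.5-fold by counting error alone. How many genes did so was not tested. Fewer genes passed at stricter limits, as given in the last section. Since 15 of the 37 lean cells held *Gzma* against 11 of 127 obese cells, the lists were also read in cells with *Gzmk* and no *Gzma* (22 and 116), a reading added after the data were seen. There 916 genes were higher and 836 lower.

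Of 19 immediate early and heat shock genes 6 were higher in the obese cells and 0 lower, against 17.8% of all genes higher. These were the immediate early genes *Dusp1*, *Zfp36* and *Fosb* and the chaperone genes *Dnajb1*, *Hspa1a* and *Hspa1b*, and the list had a median of 0.51 (0.47 in cells with *Gzmk* and no *Gzma*). The lean count of 0 for *Hspa1a* and *Hspa1b* was taken as 3 counts. *Dusp1*, a phosphatase that ends MAP kinase signals, stood at 161 CPM in the lean and 458 CPM in the obese cells (log2 ratio 1.51, 0.97 to 2.09). *Fosb*, a subunit of the transcription factor AP-1, stood at 225 and 369 CPM (0.71, 0.25 to 1.21). *Hspa1b*, which encodes the chaperone Hsp70, was at 0 UMIs in the lean and 41 in the obese cells, 26 of which lay in 1 cell. Of 7 antigen response genes 5 were higher (*Nr4a1*, *Nr4a2*, *Myc*, *Tnfrsf9* and *Cd69*) and 0 lower, with a median of 1.14, and 0.73 in cells with *Gzmk* and no *Gzma*. *Nr4a2*, a nuclear receptor induced by the T cell receptor, rested on 14 and 176 UMIs. Its level was 75.1 CPM in the lean and 181 CPM in the obese cells, and its log2 ratio 1.27 (0.48 to 2.17), while *Nr4a1*, *Myc* and *Tnfrsf9* rest on 4, 3 and 2 lean UMIs. Most of these genes were above 0 in obese neighbours too, except *Hspa1a* (-0.25) and *Tnfrsf9* (-0.38) in *Gzmb*-positive and *Myc* (-0.50) in granzyme-low cells. *Dusp1* was higher in obese granzyme-low cells by 0.42 and in obese *Gzmb*-positive cells by 1.66, and *Nr4a2* by 0.78 and 0.25. With cells thinned to 2000 UMIs the list medians were 0.52 and 1.08 and *Dusp1* stood at 1.22, but *Zfp36* fell under 1.5-fold, at 0.32 (-0.54 to 1.27). With limits per 10000 UMIs the medians were 0.39 and 0.59, *Dusp1* stood at 0.87 and *Zfp36* at 0.41.

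*Xcl1*, the chemokine that attracts cross-presenting dendritic cells, differed further. It was found in 7 of 37 lean cells with 1 UMI each, or 37.5 CPM, and in 55 of 127 obese cells, or 322 CPM. Its log2 ratio was 3.10 (2.04 to 4.43). An obese cell held 87 of the 313 UMIs. Thinned to 2000 UMIs, 2.70% (0.07% to 14.2%) of the lean and 21.6% (14.7% to 29.8%) of the obese cells held it. In granzyme-low cells the libraries stood at 156 and 161 CPM, and in *Gzmb*-positive cells at 442 and 353 CPM. Its difference between lean and obese cells was thus not seen in either neighbour, where the log2 ratios were 0.04 and -0.32, and this contrast between groups of cells was not tested.

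Of the naive and central memory genes 7 of 11 were higher in the obese cells and 2 lower (*Klf2* and *S1pr1*), with a median of 0.79. The median was 0.51 in cells with *Gzmk* and no *Gzma*, but -0.25 with limits per 10000 UMIs and -0.10 with a granzyme limit of 1 UMI. *Ccr7* and *Lef1* rested on 3 lean UMIs each. *Lef1* stood at 16.1 CPM (3.32 to 47.0) in the lean and 66.9 CPM (51.6 to 85.2) in the obese cells. *Klf2*, on 213 and 694 UMIs, stood at 1142 and 714 CPM (-0.68, -0.90 to -0.45).

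Some genes of migratory effector memory were lower in the obese cells. Of 10 circulating effector memory genes 0 were higher and 4 lower, and all 10 lay below 0, with a median of -0.44, and -0.22 in cells with *Gzmk* and no *Gzma*. *Itgb1*, the integrin beta 1 chain, stood at 687 CPM in the lean and 444 CPM in the obese cells (-0.63, -0.92 to -0.33), and *Ly6c2*, a surface marker of memory and effector T cells, at 1041 and 667 CPM (-0.64, -0.88 to -0.40). *Zeb2*, a factor of terminal effector cells, stood at 75.1 and 28.8 CPM on 14 and 28 UMIs. Of 11 S100, galectin and annexin genes 0 were higher and 3 lower (*Lgals1*, *Lgals3* and *Vim*), with a median of -0.32, and -0.15 in cells with *Gzmk* and no *Gzma*. *Lgals3*, which encodes galectin-3, stood at 434 and 152 CPM (-1.51, -1.91 to -1.10), and at -0.58 in cells with *Gzmk* and no *Gzma*, and 1 lean cell held 29 of its 81 UMIs. Of 11 cytotoxic effector genes 1 was higher, *Ifng* (0.63, 0.24 to 1.03), and 3 were lower (*Prf1*, *Serpinb9* and *Serpinb6b*), with a median of -0.30 that was 0.30 in cells thinned to 2000 UMIs. *Prf1* had a log2 ratio of -0.99 (-1.69 to -0.25) on 24 and 63 UMIs.

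Lists of glycolysis, fatty acid use and interferon had medians close to that of all genes. Glycolysis genes had 1 of 13 higher and 1 lower (*Eno1*, whose reads may be shared with its near copy *Eno1b*), with a median of -0.05. Fatty acid genes had 2 of 9 higher and 0 lower (0.01), and cholesterol genes 3 of 6 higher and 1 lower (0.40) on 10 or fewer lean UMIs but for *Ebp*. Type I interferon genes outside the rule had 2 of 9 higher and 0 lower (0.04), and interferon gamma and antigen presentation genes 4 of 17 higher and 1 lower (-0.12). *B2m*, the light chain of MHC class I, stood at 2553 and 2350 CPM. Of 13 genes of the mitochondrial genome 2 were higher (*mt-Co3* and *mt-Nd3*) and 0 lower, with a median of 0.35. *mt-Co3*, a subunit of cytochrome c oxidase, stood at 2505 and 4232 CPM (0.76, 0.62 to 0.90), while *mt-Atp8* stood at 595 and 434 CPM (-0.46, -0.76 to -0.14). In all other kept cells the log2 ratios of these 2 genes were 0.65 and -0.38. Checkpoint genes had 1 of 7 higher and 2 lower (-0.35), and survival genes 0 of 8 higher and 1 lower (0.14). NK type receptors had 0 of 7 higher and 2 lower, with all 7 below 0 (-0.41), and cytokine receptors 1 of 11 higher and 2 lower (-0.09). Chemokine receptors had 3 of 7 higher and 0 lower (0.30). Fate transcription factors had 5 of 16 higher and 4 lower (-0.16), and tissue residency genes 4 of 8 higher and 1 lower (0.33). Virtual memory genes had 1 of 10 higher and 4 lower (-0.35), and chemokines 2 of 4 higher and 1 lower (0.92).

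By size alone, among 1210 genes with 50 or more CPM in 1 library and 20 or more UMIs in each, the 12 genes highest in the obese cells were *Gm26917*, *Dusp1*, *Wdr89*, *Cct6a*, *Rpl12*, *Zfp36*, *Srsf2*, *Wnk1*, *Snrnp70*, *Gadd45b*, *Ddx24* and *Zfas1*. Of these *Gm26917*, *Dusp1*, *Wdr89* and *Rpl12* stayed past 1.5-fold under every alternative run, and the other 8 did not. With cells thinned to 2000 UMIs *Zfp36* (0.32), *Srsf2* (0.17), *Ddx24* (0.26) and *Gadd45b* (0.57) were under it. With a granzyme limit of 1 UMI *Zfp36* (0.58), *Srsf2* (0.47), *Wnk1* (0.52), *Snrnp70* (0.22), *Ddx24* (0.32) and *Cct6a* (-0.050) were, and in cells with *Gzmk* and no *Gzma* *Snrnp70* (0.52) and *Ddx24* (0.53). *Zfp36* (0.41) and *Cct6a* (-0.054) were under it with limits per 10000 UMIs, and *Zfp36* (0.38), *Snrnp70* (0.32) and *Zfas1* (0.58) with a granzyme limit of 5. Single cells weighed on a pair of these genes. *Gm26917*, a long noncoding RNA, had a log2 ratio of 2.11, with 213 of 517 obese UMIs in 1 cell, and *Cct6a*, a chaperonin subunit, one of 1.23, with 56 of 95 lean UMIs in 1 cell. *Gadd45b*, a stress gene, stood at 188 and 328 CPM (0.81, 0.30 to 1.35), with log2 ratios of 0.72 in granzyme-low and 0.95 in *Gzmb*-positive cells. The 12 lowest were *Gzma*, *Rasgrp2*, *Hist1h1e*, *Lgals3*, *Plac8*, *Jaml*, *Svil*, *Sap18*, *Rasa3*, *Eno1*, *Cope* and *Tiprl*. Of these 4 lost 1.5-fold under an alternative. *Tiprl* stood at -0.39 when thinned, *Lgals3* at -0.58 in cells with *Gzmk* and no *Gzma*, and *Plac8* at -0.53 with a *Ccl5* limit of 40. *Svil* stood at 0.083 with limits per 10000 UMIs and at -0.36 with a granzyme limit of 5. *Rasgrp2*, an activator of integrin signals through Rap1, stood at 134 CPM in the lean and 36.0 CPM in the obese cells (-1.90, -2.68 to -1.10), with at most 5 UMIs in a cell, and with log2 ratios of -0.54 in granzyme-low and 0.14 in *Gzmb*-positive cells. *Jaml*, an adhesion receptor, stood at 129 and 46.3 CPM (-1.48, -2.22 to -0.70). In cells with *Gzmk* and no *Gzma* the log2 ratio of *Rasgrp2* was -1.94 and that of *Jaml* -1.60.

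**Figure D5:**
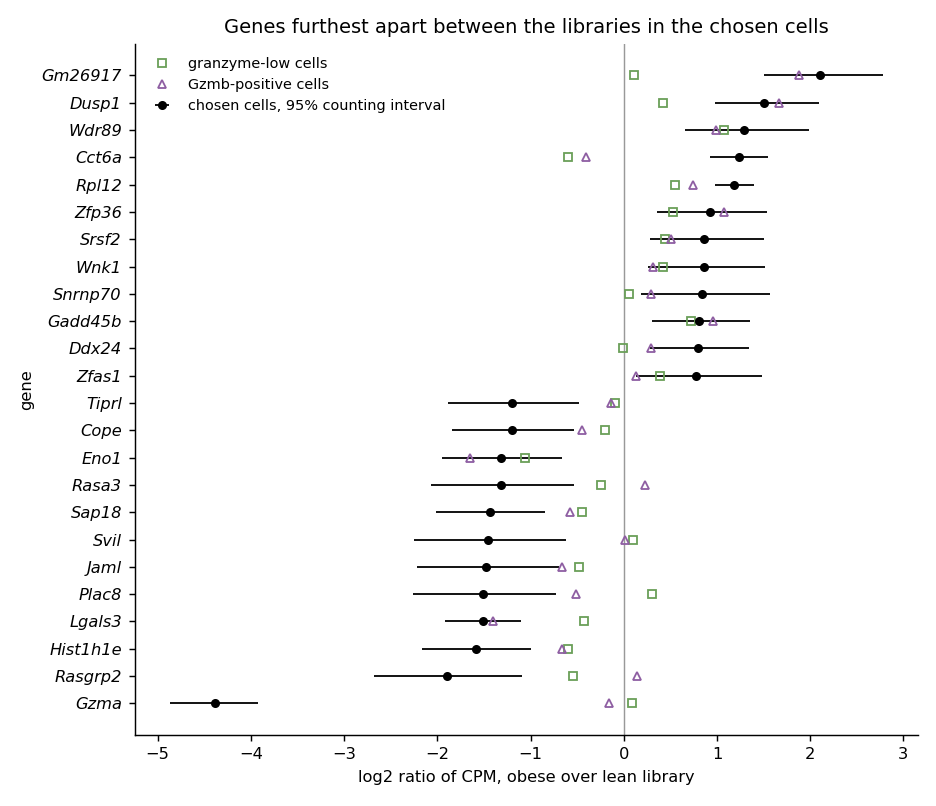
Log2 ratio of CPM, obese over lean library, of the 12 highest and 12 lowest genes in the chosen cells (black, with 95% counting intervals), and of the same genes in granzyme-low and Gzmb-positive cells (open symbols). Gzma, a gene of the rule, lies at -4.38 in the chosen cells and at -0.15 in Gzmb-positive cells. Granzyme-low cells were limited to under 2 UMIs of Gzma and Gzmk together, so their Gzma value is no contrast.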

How the data were processed

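The authors sorted CD8+ TIL, made 10x Genomics 3' libraries and counted UMIs. Per the submitters' processing notes these were Cell Ranger 6.0.2 and the mm10 genome. The deposited counts are whole UMIs per gene and cell without normalization, for 2697 lean and 2623 obese cells, 33904480 and 38869488 UMIs.

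The quality limits left 2456 and 2289 cells. For each group the UMIs of a gene in all its cells were added and divided by the group's total (CPM) with Python 3.11.15, numpy 2.4.6, scipy 1.17.1 and pandas 2.3.3. CPM carry exact Poisson, shares of cells Clopper-Pearson and log2 ratios exact conditional binomial 95% intervals. A count of 0 entered ratios as 3 counts. No doublet caller was run. Only the ratios and intervals of summed counts were tested on simulated data. The choice of cells, thinning, lists, rankings and scaling were not so tested, nor were genes with few lean UMIs.

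The cells and the gene lists were chosen with earlier results of these data known. Named genes are those of the rule and lists, the 12 highest and 12 lowest in each ranking given, 5 and 5 for the split of granzymes, and the 3 V genes with most UMIs. Positions are from GENCODE vM21, in which 99.6% of 32285 identifiers were found. *Mx1* and *Aldoa* could not be used. Some genes of the lists and rankings are counted but not reported by name here. Alternatives were other limits, scaling by edgeR 4.0.16 or DESeq2 1.42.0 factors (R 4.3.3), means over cells and thinning.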

Additional observations from a re-analysis of the deposited data

Results flagged for a closer look

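Among the genes ranked between the libraries, *Cct6a* and *Plac8* had a log2 ratio of the opposite sign and a size of 0.3 or more in a neighbouring group of cells. Smaller values of the opposite sign, as for *Rasgrp2*, *Rasa3*, *Svil*, *Gzma* and *Ddx24*, are not taken up here, and none of these differences was tested. *Cct6a* was higher in the obese cells (log2 ratio 1.23) but lower in obese granzyme-low (-0.59) and *Gzmb*-positive cells (-0.41). *Plac8*, a gene of effector and memory T cells, was lower in the obese cells (-1.51), on 24 and 44 UMIs, but higher in obese granzyme-low cells (0.30) and lower in obese *Gzmb*-positive cells (-0.51).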

How the results depend on the processing

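The ratio of the shares of cells stayed above 1 under every alternative run. It was 2.52 with a granzyme limit of 1 UMI, 2.01 with 5, 6.19 in cells of 5000 to 10000 UMIs and 1.73 with the rule read on cells thinned to 2000 UMIs, the last pair of readings being added after the data were seen. The *Gzma* ratio stayed negative and was -3.64 with a granzyme limit of 1, -3.52 with limits per 10000 UMIs and -2.56 with the thinned rule. The *Gzmk* ratio, near 0 as reported, was 0.87 with a granzyme limit of 5, 0.49 per 10000 UMIs, 0.65 at 5000 to 10000 UMIs, 0.62 with the thinned rule and -0.39 in cells with *Gzmk* and no *Gzma*, so no direction is given for it. Genes 1.5-fold higher and lower in the obese cells numbered 334 and 318 with a granzyme limit of 5, 341 and 330 when thinned, 259 and 428 at 50 or more CPM, and 437 and 196 at 2-fold, and 466 were lower with TMM. Genes higher than in granzyme-low cells numbered 197 and 454 with granzyme limits of 1 and 5. Higher and lower they numbered 116 and 268 with TMM, 121 and 258 with DESeq2 size factors, 136 and 327 without mitochondrial and ribosomal protein genes in the total, 62 and 21 at 50 or more CPM, and 43 and 32 at 2-fold. A single gene's value was counted as unchanged if it lay inside the counting interval of its main value, which is wide on few lean UMIs. *Zfp36* at 0.41 per 10000 UMIs was so counted, against 0.92 (0.36 to 1.54), though it fell under 1.5-fold. The count is thus no measure of closeness. Of the single genes and lists, 1008 of 1092 alternative values were counted as unchanged, 77 moved and 7 that had been past 1.5-fold changed sign. *Cct6a* stood at -0.050 with a granzyme limit of 1 and at -0.054 per 10000 UMIs, *Svil* stood at 0.083 per 10000 UMIs, and *Tcrg-C2* over granzyme-low cells at -0.48 (lean, *Ccl5* limit 40) and -1.90 (obese, granzyme limit 5). The naive and central memory median between libraries was -0.10 with a granzyme limit of 1 and -0.25 per 10000 UMIs. The cause of these shifts was not tested. No paired analysis was possible because each diet has 1 library, and for the same reason no replicate could be left out. In the lean cells a gene under 16.1 CPM can go uncounted, so low lean values are the least certain.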
